A study of Mus musculus with 14 samples.

Results

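Trim30 and Schlafen genes are 9 of the 33939 genes measured in CD11b+ cells of the injured mouse brain. The list holds 4 copies of Trim30 (*Trim30a*, *Trim30b*, *Trim30c* and *Trim30d*) and 5 Schlafen genes (*Slfn1*, *Slfn2*, *Slfn5*, *Slfn8* and *Slfn9*). They were chosen by symbol from results of these same libraries, and the list does not state which comparison or values led to them. The counts and p values of the 9 genes are therefore descriptions of these libraries and not independent evidence about the families. All 9 genes were found in the table by Ensembl identifier, and all 9 passed the filter on low values in each comparison.

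The study asked how the conditional knockout of a gene in microglia changes these cells after traumatic brain injury (TBI). CD11b is an integrin on the surface of microglia, macrophages, monocytes and neutrophils, and CD11b+ cells were taken with magnetic beads from the hemisphere without lesion (CL) and the hemisphere with TBI (IL). RNA was sequenced from 14 bulk libraries, which bear the numbers of 8 mice. Of these mice, 6 gave both hemispheres.

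All mice were C57BL/6, aged 8 to 12 weeks, treated with tamoxifen and killed 3 days post-TBI, which was made by controlled cortical impact. Control mice (Ctrl) were *Cx3cr1*-CreER+/-, and knockout mice (cKO) carried the same Cre allele with both copies of the target gene floxed. The Cre allele sits at *Cx3cr1*, so the controls too carry 1 disrupted copy of that chemokine receptor gene, and cells that express *Cx3cr1* other than microglia can also recombine. Mice 3541, 3545, 3546 and 3551 gave the 4 libraries of Ctrl CL and the 4 of Ctrl IL. Mice 788, 791 and 3592 gave the 3 libraries of cKO CL, and mice 784, 791 and 3592 the 3 of cKO IL. Each mouse number was taken as a separate animal, and uninjured mice were not analysed here.

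Values are reads of a gene per 1000000 reads assigned to genes (CPM), from 12.2 to 41.6 M reads a library (1 M is 1000000) with a median of 34.2 M. The shallowest library was Ctrl IL of mouse 3546. The summed level of 8 microglia markers was 33468 to 38023 CPM in CL and 18650 to 22982 CPM in IL libraries, the highest sum of the 10 cell type lists in all 14. The sum of 8 monocyte markers was 155 to 787 CPM in CL and 694 to 1295 CPM in IL. The sum of 8 neutrophil markers was 492 to 6051 CPM in CL and 147 to 853 CPM in IL. T and NK cell markers summed to 3.57 to 16.1 CPM and B cell markers to 320.4 to 833 CPM. No marker of the first 3 lists was at 0 throughout a group. In bulk libraries, fewer cells of a type and less RNA per cell cannot be told apart.

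TRIM proteins are ubiquitin ligases with a RING finger, and many of them restrain or drive antiviral signalling. TRIM30A is a mouse protein induced by interferon and Toll-like receptor signals that was described to promote the breakdown of TAB2 and TAB3, adaptors on the path to NF-kB. Schlafen genes encode proteins of myeloid cells and lymphocytes that were linked to quiescence and to the control of translation, and many of them are induced by type I interferon. Loss of *Slfn2* gives the mouse strain named elektra, whose T cells and monocytes fail to keep quiescence. In the brain both families are known as parts of the interferon response of microglia and of infiltrating myeloid cells.

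The members form 2 clusters in the mouse genome (GRCm38, GENCODE M21 gene models). *Trim30b*, *Trim30c*, *Trim30a* and *Trim30d* lie in this order on the minus strand of chromosome 7, over 152 kb (chr7:104355382-104507849). The Schlafen members lie over 171 kb of chromosome 11 (chr11:82951349-83122670), with *Slfn5*, *Slfn2* and *Slfn1* on the plus strand and *Slfn9* and *Slfn8* on the minus strand.

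The 250 bases before the RefSeq start listed for each gene (GRCm38.p6) were searched on both strands for the core letters of 2 response elements of interferon signalling. The interferon-stimulated response element (ISRE) is bound by factors activated through the type I interferon receptor, and its core was searched as 2 copies of GAAA in the same direction with any 2 bases between them. The gamma-activated site (GAS) serves the response to interferon gamma, and its core was searched as TTCNNNGAA. Of the 9 members, 5 held the ISRE letters (*Trim30a*, *Trim30d*, *Slfn5*, *Slfn8* and *Slfn9*), against 3.46% of the 27025 genes in the table (2.98% of its 32851 promoters). The GAS letters were found in 1 member, *Trim30c*, against 8.13% of the genes (7.02% of the promoters). The members have 11 promoters in the table. No member held both motifs. The second listed promoter of *Trim30a* did not hold either motif, and that of *Slfn8* overlapped the first and held the same ISRE letters. The windows of *Trim30b* and *Slfn5* lie within their longer GENCODE gene models, that of *Trim30b* far from the start of its model, whose own upstream bases were not searched. A match describes these letters only, and no match says only that they are not in this window.

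The 5 promoters with ISRE letters are printed to show where these stand, beside that of *Slfn2*, the most abundant member, which held neither motif. Each line gives the 250 bases up to the RefSeq start, 5′ to 3′ on the gene's strand, with the ISRE letters in capitals.
Trim30a: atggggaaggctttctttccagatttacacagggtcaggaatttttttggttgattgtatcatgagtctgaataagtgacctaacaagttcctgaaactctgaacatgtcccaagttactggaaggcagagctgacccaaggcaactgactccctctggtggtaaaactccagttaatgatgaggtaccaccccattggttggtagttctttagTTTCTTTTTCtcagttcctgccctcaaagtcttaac
Trim30d: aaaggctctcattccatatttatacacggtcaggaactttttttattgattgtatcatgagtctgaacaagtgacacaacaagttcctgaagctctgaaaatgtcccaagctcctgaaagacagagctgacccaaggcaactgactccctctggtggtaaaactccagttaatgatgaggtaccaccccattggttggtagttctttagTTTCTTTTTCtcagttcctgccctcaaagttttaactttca
Slfn5: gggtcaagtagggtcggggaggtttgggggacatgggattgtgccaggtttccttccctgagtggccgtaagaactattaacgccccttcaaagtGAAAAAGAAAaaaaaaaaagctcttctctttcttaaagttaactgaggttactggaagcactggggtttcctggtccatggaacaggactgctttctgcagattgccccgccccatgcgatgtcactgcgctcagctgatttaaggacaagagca
Slfn8: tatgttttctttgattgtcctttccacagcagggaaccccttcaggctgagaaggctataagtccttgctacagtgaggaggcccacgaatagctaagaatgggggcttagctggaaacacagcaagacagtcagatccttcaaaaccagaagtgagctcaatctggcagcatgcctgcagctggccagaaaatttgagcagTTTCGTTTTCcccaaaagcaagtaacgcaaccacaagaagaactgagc
Slfn9: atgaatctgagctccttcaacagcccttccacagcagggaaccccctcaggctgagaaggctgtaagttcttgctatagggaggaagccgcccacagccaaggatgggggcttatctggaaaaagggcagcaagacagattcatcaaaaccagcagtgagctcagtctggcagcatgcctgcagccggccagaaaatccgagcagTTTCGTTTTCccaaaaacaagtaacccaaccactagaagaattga
Slfn2: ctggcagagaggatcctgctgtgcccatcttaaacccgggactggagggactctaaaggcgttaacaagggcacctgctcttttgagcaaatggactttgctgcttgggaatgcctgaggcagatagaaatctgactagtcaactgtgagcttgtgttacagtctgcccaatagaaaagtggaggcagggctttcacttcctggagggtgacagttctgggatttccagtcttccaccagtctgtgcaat

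These windows are chr7:104465194-104465443 (minus strand) for *Trim30a*, chr7:104507850-104508099 (minus) for *Trim30d*, chr11:82951852-82952101 (plus) for *Slfn5*, chr11:83020811-83021060 (minus) for *Slfn8*, chr11:82991831-82992080 (minus) for *Slfn9* and chr11:83064862-83065111 (plus) for *Slfn2*. *Trim30a* and *Trim30d* carried the same 10 letters, TTTCTTTTTC, which began 36 and 41 bases before their starts. *Slfn8* and *Slfn9* shared another form, TTTCGTTTTC, which began 48 and 45 bases before theirs. The letters of *Slfn5* lay farther away, 155 bases before its start.

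Several members are close copies, so that some of their reads could be assigned to either gene. Over the longest coding transcripts, *Slfn8* and *Slfn9* aligned over 3496 bases with 92.6% identity, *Trim30a* and *Trim30d* over 1998 bases with 83.0%, and *Trim30a* and *Trim30c* over 1669 bases with 81.5%. Windows of 75 bases found word for word in another gene made up 7.52% of *Slfn8* and 6.06% of *Slfn9*, shared with each other and with the pseudogene *Slfn10-ps*. They made up 5.44% of *Trim30a* and 6.45% of *Trim30d*. No such window was found in *Slfn1* or *Trim30c*. Of *Slfn5*, 8.81% of the windows lay in other genes, most of them in the antisense gene *Slfn5os*, which was at or under 0.134 CPM in each library. The antisense gene *Gm20234* overlaps *Slfn2* and was at or under 0.267 CPM. The pseudogene *Gm16464* lies within *Trim30d* and was at 1.15 to 5.32 CPM. The sources used here give no strand setting for the counting, so reads of overlapping genes cannot be told apart.

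Per kb of exon, *Slfn2* was the most abundant member in each group, with a mean of 77.1 CPM per kb in Ctrl CL, 185 in Ctrl IL, 57.7 in cKO CL and 202 in cKO IL. *Trim30a* followed at 14.5, 18.7, 15.04 and 29.3 CPM per kb. *Slfn8* came next at 10.4, 9.999, 10.1 and 12.95, and *Trim30d* at 7.66, 6.35, 7.36 and 9.40. The other 5 members had group means from 0.514 to 7.11 CPM per kb. Of the reads of the 4 Trim30 copies, *Trim30a* made up 58.9% to 61.3% in Ctrl CL, 70.2% to 73.9% in Ctrl IL, 63.3% to 69.0% in cKO CL and 72.6% to 74.4% in cKO IL. Its share was thus higher in each IL than in each CL library of both genotypes. Of the reads of the 5 Schlafen members, *Slfn2* made up 54.0% to 71.1% in CL and 70.9% to 83.2% in IL libraries.

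**Figure D1:**
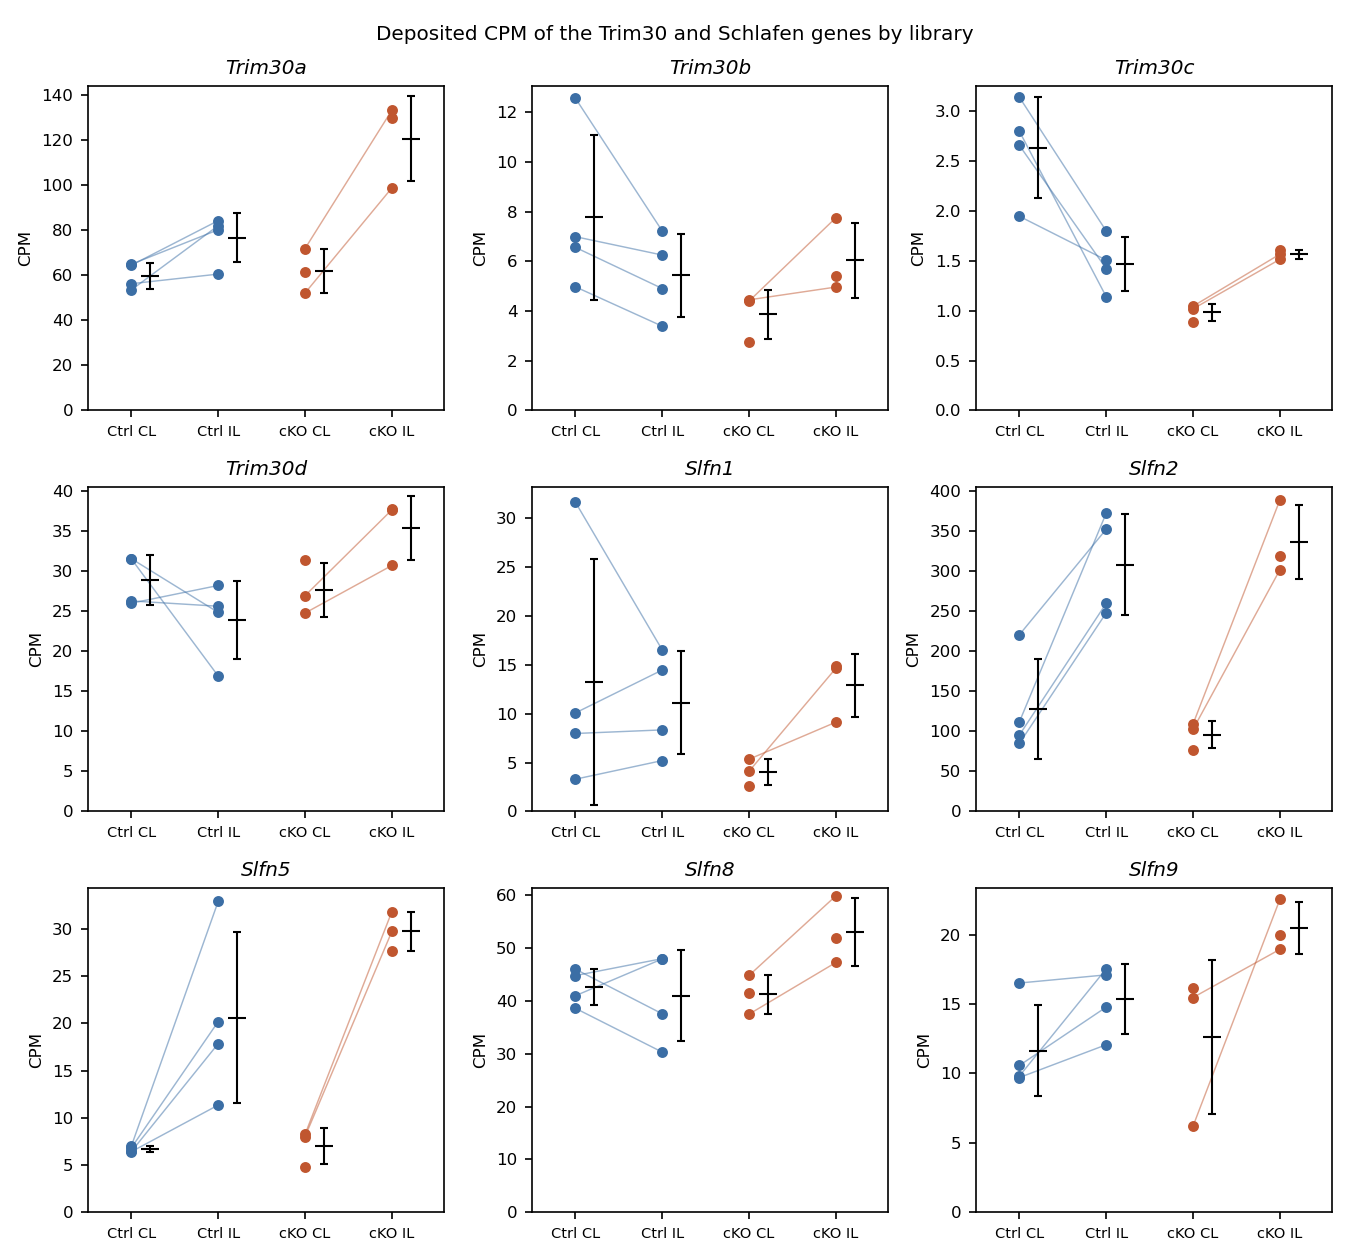
Deposited CPM of each member (y axes from 0, with their own scale for each gene) in the 14 libraries by group (x axis), blue for Ctrl and orange for cKO, with lines joining the hemispheres of a mouse and black marks for the mean and SD. Slfn2 and Slfn5 stand higher in each IL than in each CL library, while Trim30c falls from CL to IL in the 4 Ctrl mice and rises in the 2 cKO mice that gave both.

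IL and CL hemispheres were compared first in the control mice, for the response of the genes to injury without the deletion. Of the 9 members, 2 were called higher in IL (limma on log2(CPM + 1), adjusted p at or under 0.05 over all genes and a fold change of at least 1.2), namely *Slfn2* and *Slfn5*. Of all genes tested, 7.52% were called, and 4.18% were called higher. In *Slfn2* and *Slfn5* each IL library stood above each CL library, as in 6.26% of all genes. The median log2 difference was 0.12 over the 9 members and -0.03 over all genes.

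*Slfn2*, the quiescence gene, was at 221, 112, 95.4 and 85.0 CPM in the CL libraries of the Ctrl mice 3541, 3545, 3546 and 3551. In their IL libraries it was at 352, 373, 260 and 248 CPM. The lowest IL library stood above the highest CL library, which was that of mouse 3541. The log2 difference was 1.43 ± 0.33 (SE), a fold of 2.69 on the log2(CPM + 1) scale (limma adjusted p = 0.0297). The call was lost when Ctrl CL of mouse 3545 (adjusted p = 0.0946), 3546 (0.0820) or 3551 (0.0758), or Ctrl IL of mouse 3541 (0.102), 3545 (0.0995) or 3551 (0.0531) was left out, with limma log2 differences from 1.24 to 1.57. It was also lost without the filter on low values (adjusted p = 0.112).

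*Slfn5* encodes a long Schlafen protein found in the nucleus. It was at 6.44, 6.42, 7.02 and 6.84 CPM in Ctrl CL, and at 17.8, 11.3, 32.9 and 20.2 CPM in Ctrl IL of the same mice in the same order. The 4 CL libraries lay close together, the IL libraries were spread more widely, and the groups did not overlap. IL exceeded CL by 1.47 ± 0.25 on the log2 scale (limma adjusted p = 0.00755). This call held under all alternatives that were tried.

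*Trim30a*, the copy best known as a brake on NF-kB signalling, was at 64.5, 64.9, 53.5 and 56.3 CPM in Ctrl CL and at 84.3, 80.2, 82.0 and 60.5 CPM in Ctrl IL of mice 3541, 3545, 3546 and 3551. The IL library of mouse 3551 fell within the range of the CL libraries. The log2 difference of 0.43 ± 0.18 was not called (limma adjusted p = 0.198). With the mouse as a block it was called (adjusted p = 0.0252), as were 3348 of all genes.

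*Trim30c* was at 1.95, 2.66, 3.14 and 2.80 CPM in Ctrl CL and at 1.51, 1.42, 1.80 and 1.14 CPM in Ctrl IL, in the same order of mice. It was the only member whose IL libraries all stood under the CL libraries, as they did in 11.4% of all genes. The log2 difference of -0.50 ± 0.17 was not called in the 8 libraries (limma adjusted p = 0.118), and it was called lower in a single fit of all 14 libraries (adjusted p = 0.0354). These levels rest on 22 to 106 reads a library.

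The remaining members gave no call in Ctrl. *Slfn9* had a log2 difference of 0.47 ± 0.19 (limma adjusted p = 0.183). The log2 differences of *Trim30b*, *Trim30d*, *Slfn1* and *Slfn8* lay between -0.34 and 0.12, and their groups overlapped. *Slfn1* ranged from 3.30 to 31.7 CPM in Ctrl CL alone, a wider span than in the other 3 groups.

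In the cKO mice 4 of 9 members were called higher in IL than in CL (*Trim30a*, *Slfn1*, *Slfn2* and *Slfn5*), where 23.1% of all genes were called and 12.3% called higher. The log2 differences of all 9 members were above 0, from 0.41 to 2.03, with a median of 0.82 against 0.01 over all genes. In 8 members, all but *Trim30d*, each IL library stood above each CL library, as in 18.1% of all genes.

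*Slfn5* was at 4.82, 8.26 and 8.02 CPM in cKO CL (mice 788, 791 and 3592) and at 27.7, 31.8 and 29.7 CPM in cKO IL (mice 784, 791 and 3592). Its IL libraries were more than 3 times as high as any CL library. The fitted log2 difference was 2.03 ± 0.19 (limma adjusted p = 0.00195).

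*Slfn2* was at 76.3, 109 and 103 CPM in cKO CL and at 319, 389 and 302 CPM in cKO IL. It rose by 1.87 ± 0.16 on the log2 scale (limma adjusted p = 0.00195). *Slfn2* and *Slfn5* were thus the members with the largest fitted rise in both genotypes, and both calls in cKO held in each of the alternatives tried.

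*Trim30a* was at 61.5, 71.9 and 52.1 CPM in cKO CL and at 130, 133 and 98.8 CPM in cKO IL. The rise was 1.02 ± 0.18 on the log2 scale (limma adjusted p = 0.00728). Its CL libraries overlapped those of the Ctrl mice, from 1 library under to 1 above their range, while its 3 IL libraries stood above each of the 4 Ctrl IL libraries.

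*Slfn1*, a short Schlafen gene named for its effect on thymocyte growth, was at 2.63, 4.11 and 5.34 CPM in cKO CL and at 14.9, 14.7 and 9.14 CPM in cKO IL. It rose by 1.53 ± 0.27 on the log2 scale (limma adjusted p = 0.00759). The call was lost in a single fit of all 14 libraries (adjusted p = 0.155), in which the spread among the Ctrl libraries also entered.

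The other members had smaller differences in cKO. *Slfn9* was at 16.1, 15.5 and 6.21 CPM in CL and at 20.0, 18.9 and 22.5 CPM in IL, a log2 difference of 0.82 ± 0.32 that was not called (limma adjusted p = 0.101). It was called with the mouse as a block (log2 difference 1.06, adjusted p = 0.0485), a fit that rests on the 2 mice with both hemispheres, and without cKO CL of mouse 3592 (0.40, adjusted p = 0.0495). *Trim30d* and *Slfn8* were called without cKO IL of mouse 3592 (limma adjusted p = 0.0480 and 0.0425), and *Trim30c* with 10 reads required in each library (adjusted p = 0.04996). In the 6 libraries with the main filter, *Trim30b*, *Trim30c*, *Trim30d* and *Slfn8* had log2 differences from 0.41 to 0.59, with limma adjusted p from 0.0635 to 0.108.

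The hemispheres of the same mouse give the comparison without differences between animals. IL was higher than CL in 6 of 6 mice for *Slfn5* (IL to CL ratio of CPM from 1.77 to 4.68), *Slfn2* (1.60 to 3.56), *Trim30a* (1.08 to 1.89) and *Slfn9* (1.04 to 3.63). It was higher in 5 of 6 mice for *Slfn1* and in 4 of 6 for *Slfn8*. *Trim30d* was higher in IL in 3 of 6 mice, and after the scaling used in the fits also in mouse 3541, whose CPM ratio was 0.975.

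*Trim30b* and *Trim30c* behaved otherwise. Both were lower in IL in the 4 Ctrl mice, with ratios of 0.575 to 0.894 for *Trim30b* and 0.407 to 0.774 for *Trim30c*. Both were higher in IL in the 2 cKO mice, with ratios of 1.12 and 1.76 for *Trim30b* and 1.487 and 1.499 for *Trim30c*.

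**Figure D2:**
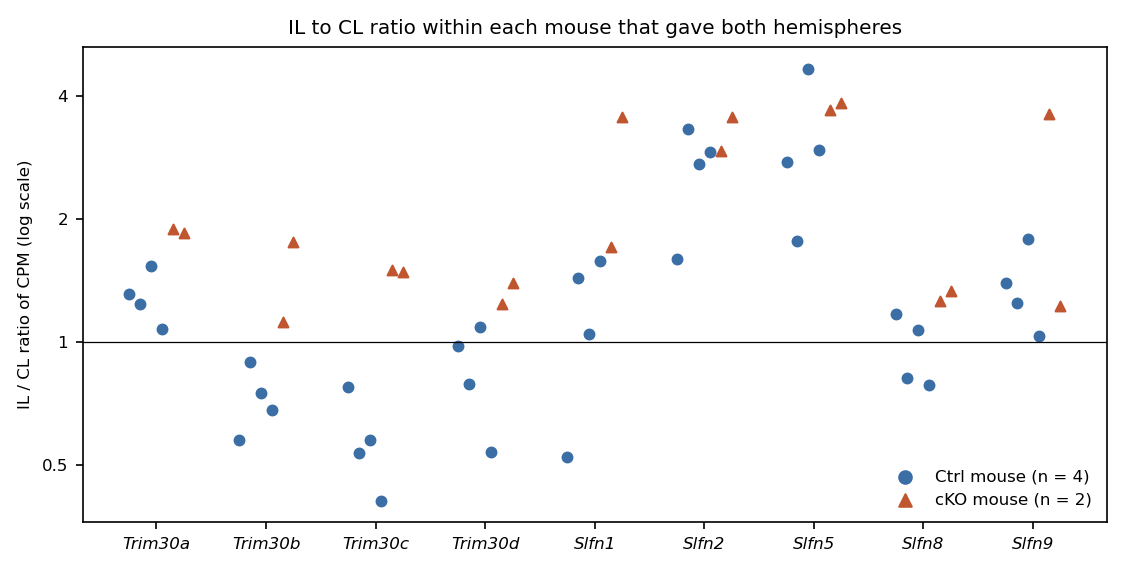
Ratio of IL to CL CPM (y axis, log scale, line at 1) within each of the 6 mice that gave both hemispheres, by gene (x axis), circles for Ctrl and triangles for cKO. Slfn2 and Slfn5 lie above 1 in all 6 mice, whereas Trim30b and Trim30c lie under 1 in the 4 Ctrl and above 1 in the 2 cKO mice.

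cKO and Ctrl mice were compared within the IL hemisphere for the effect of the deletion on injured tissue. No member was called (limma, 0 of 9), against 0.668% of all genes, and 4 of 9 had an unadjusted p under 0.05, against 9.23% of all genes. All 9 log2 differences were above 0, with a median of 0.40 over the members and 0.01 over all genes. In *Trim30a*, *Trim30d* and *Slfn9*, each cKO library stood above each Ctrl library, as in 4.84% of all genes.

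*Trim30a* had the largest of these differences, 0.66 ± 0.20 on the log2 scale (limma adjusted p = 0.276). Its mean was 121 ± 19.0 CPM (SD, n = 3) in cKO and 76.8 ± 10.9 CPM (SD, n = 4) in Ctrl. *Slfn5* differed by 0.62 ± 0.26 (adjusted p = 0.511), with 29.7 ± 2.08 CPM (SD) in cKO against 20.6 ± 9.03 CPM (SD) in Ctrl. Its highest library was a Ctrl library, that of mouse 3546, and it stood above all cKO libraries. *Trim30d* was at 37.6, 37.6 and 30.7 CPM in the cKO mice 784, 791 and 3592 and at 25.6, 24.8, 28.2 and 16.9 CPM in the Ctrl mice 3541, 3545, 3546 and 3551. Its log2 difference was 0.58 ± 0.21 (limma adjusted p = 0.393).

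*Slfn9* differed by 0.42 ± 0.14 (limma adjusted p = 0.334) and *Slfn8*, its close copy, by 0.40 ± 0.20 (adjusted p = 0.632). Without Ctrl IL of mouse 3551 the difference of *Slfn8* was 0.25, and 0.29 without cKO IL of mouse 791. The sum of *Slfn8* and *Slfn9* was 73.4 ± 4.70 CPM (SD) in cKO and 56.3 ± 9.11 CPM (SD) in Ctrl. It does not depend on how reads were split between both, but it can depend on reads shared with the pseudogene *Slfn10-ps*. That pseudogene was at 11.5 to 13.9 CPM in cKO IL and 10.1 to 12.7 CPM in Ctrl IL. The sum of *Trim30a* and *Trim30d* was 156 ± 23.0 CPM against 101 ± 15.7 CPM (SD). These sums were not tested. *Trim30b*, *Trim30c*, *Slfn1* and *Slfn2* differed by 0.07 to 0.30. Of these, *Trim30b*, *Trim30c* and *Slfn1* changed sign without Ctrl IL of mouse 3551, to -0.029, -0.0046 and -0.0072, and *Trim30b* also without cKO IL of mouse 791, to -0.031.

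The 5 members with ISRE letters in their promoter had IL differences between the genotypes from 0.40 to 0.66, and the 4 without them from 0.07 to 0.30. The lower end of the first set is *Slfn8*, which was 0.25 without Ctrl IL of mouse 3551. This split was looked at after the values were known, and 4 of the 5 promoters belong to the pairs of close copies *Trim30a* and *Trim30d*, and *Slfn8* and *Slfn9*. In the CL hemisphere without lesion the 2 sets did not overlap either. They ran from -0.02 to 0.08 for members with and from -1.12 to -0.29 for members without the letters. The upper end of the second set is *Slfn2*, which was 0.041 without Ctrl CL of mouse 3541, within the range of the first. In CL the neutrophil marker sum had an r of 0.95, 0.90, 0.82 and 0.39 with the second set's *Slfn1*, *Trim30b*, *Slfn2* and *Trim30c*. Its part in the split was not tested. In the interaction the median was 0.52 with and 0.89 without the letters. Between hemispheres the 2 sets overlapped, with -0.20 to 1.47 for members with and -0.50 to 1.43 for members without these letters in Ctrl.

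**Figure D3:**
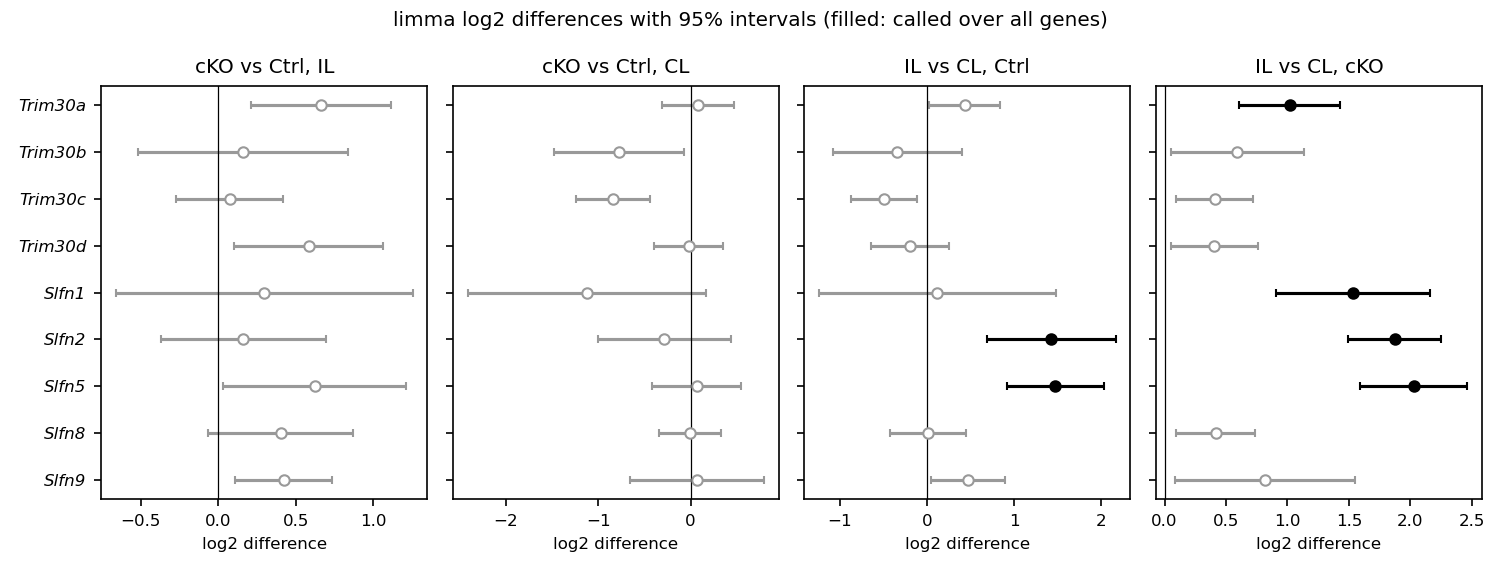
Fitted log2 differences (x axes, each panel with its own range) of the 9 members (y axis) with 95% intervals in 4 comparisons. Filled points are called over all genes, which holds for Slfn2 and Slfn5 between hemispheres in Ctrl, for these and Trim30a and Slfn1 in cKO, and for no member between genotypes.

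In the CL hemisphere, which had no lesion, no member was called between cKO and Ctrl either (limma, 0 of 9), against 0.903% of all genes. An unadjusted p under 0.05 was found for 2 of 9 members, *Trim30b* and *Trim30c*, against 10.2% of all genes. The cKO libraries of both stood under all Ctrl libraries, as in 6.02% of all genes. The median of the 9 members was -0.02, as it was over all genes.

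*Trim30c* was at 0.886, 1.02 and 1.05 CPM in cKO CL against 1.95 to 3.14 CPM in Ctrl CL, on 27 to 106 reads a library. The log2 difference was -0.84 ± 0.18 (limma adjusted p = 0.0733). It was called lower when all 14 libraries shared 1 fit (adjusted p = 0.0099) and when the mouse was a random effect in that fit (0.0145). The sum of 5 oligodendrocyte markers, looked at after the values were known, did not overlap between these groups either. It was 126 to 193 CPM in Ctrl CL and 80.8 to 113 CPM in cKO CL. In IL it was 92.0 to 147 CPM in Ctrl and 94.9 to 139 CPM in cKO. Its part in the result was not tested. *Trim30b* was at 2.74, 4.40 and 4.45 CPM in cKO CL and at 12.6, 6.997, 6.57 and 4.98 CPM in Ctrl CL, a log2 difference of -0.78 ± 0.32 (adjusted p = 0.427) that was -0.52 without Ctrl CL of mouse 3541.

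*Slfn1* had the largest log2 difference of the members in CL, -1.12 ± 0.58, with overlapping groups (limma adjusted p = 0.558). Without Ctrl CL of mouse 3541 it was -0.57. The other 6 members differed by -0.29 to 0.08. *Trim30a*, for which the IL hemispheres gave the largest difference, was at 61.8 ± 9.87 CPM (SD) in cKO CL and 59.8 ± 5.76 CPM (SD) in Ctrl CL, with a 95% interval of the log2 difference from -0.31 to 0.47.

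Whether injury moved a member by a different amount in the 2 genotypes was tested as an interaction of both factors in the 14 libraries. No member was called (limma, 0 of 9), nor was any of the 18476 genes tested, a share of 0%. An unadjusted p under 0.05 was found for 490 genes or 2.65%, and among the members for 1, *Trim30c*. All 9 estimates were above 0, with a median of 0.55. For *Trim30c* the IL minus CL difference was greater in cKO by 0.88 ± 0.21 (limma adjusted p = 0.9997). Its cKO CL libraries were the lowest of all 14. The calls of *Trim30a* and *Slfn1* in cKO and not in Ctrl are thus not shown to differ, with interaction estimates of 0.55 ± 0.29 and 1.39 ± 0.81. With a library left out, the estimate of *Trim30a* ran from 0.39 to 0.73. That of *Slfn1* ran from 0.82, without Ctrl CL of mouse 3541, to 1.85.

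Neutrophil markers varied most among the CL libraries, and *Slfn1*, *Trim30b* and *Slfn2* followed them most closely. The sum of the 8 markers was 6051, 1976, 2720 and 493 CPM in Ctrl CL of mice 3541, 3545, 3546 and 3551, and 492, 741 and 1361 CPM in cKO CL of mice 788, 791 and 3592. *Slfn1* was highest in the CL library of mouse 3541 (31.7 CPM) and lowest in that of mouse 788 (2.63 CPM), the libraries with the highest and the lowest marker sum. *Trim30b* had its highest and lowest CL values in the same libraries (12.6 and 2.74 CPM).

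Over the 7 CL libraries, which belong to 2 genotypes, the correlation of log2 levels with the marker sum was 0.95 for *Slfn1*, 0.90 for *Trim30b*, 0.82 for *Slfn2*, 0.39 for *Trim30c*, 0.23 for *Slfn8*, 0.14 for *Slfn5*, -0.02 for *Trim30a*, -0.53 for *Trim30d* and -0.60 for *Slfn9*. Over the 7 IL libraries it was 0.785 for *Slfn2*, 0.747 for *Trim30b* and 0.726 for *Slfn1*, and between -0.56 and 0.19 for the other members. In CL the monocyte sum went with *Slfn1* and *Trim30b* to a like degree (0.88 and 0.89), whereas over the 7 IL libraries its correlation was -0.685 with *Slfn1*, -0.44 with *Trim30b* and -0.666 with *Slfn2*. The part of these cells in the results was not tested. Between hemispheres, the neutrophil sum was lower in IL in all 6 mice while *Slfn2* and *Slfn5* were higher. The monocyte sum was higher in IL in 6 of 6 mice, as were its markers *Fn1*, *Ccr2* and *Ms4a4c*, while *Ly6c2* was lower in IL in 5 of 6 and *Chil3* in 4 of 6. Without *Fn1*, a choice made after seeing the data, the sum was higher in IL in 4 of 6 mice. *Fn1* was at 244 to 686 CPM in IL and 15.1 to 103 CPM in CL, and *Chil3* was at 30.8 to 183 CPM in IL and 27.8 to 538 CPM in CL. Between genotypes in IL, the neutrophil sums overlapped (147 to 853 CPM in Ctrl and 212 to 348 CPM in cKO), as did the monocyte sums (737 to 1295 and 694 to 1068 CPM).

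**Figure D4:**
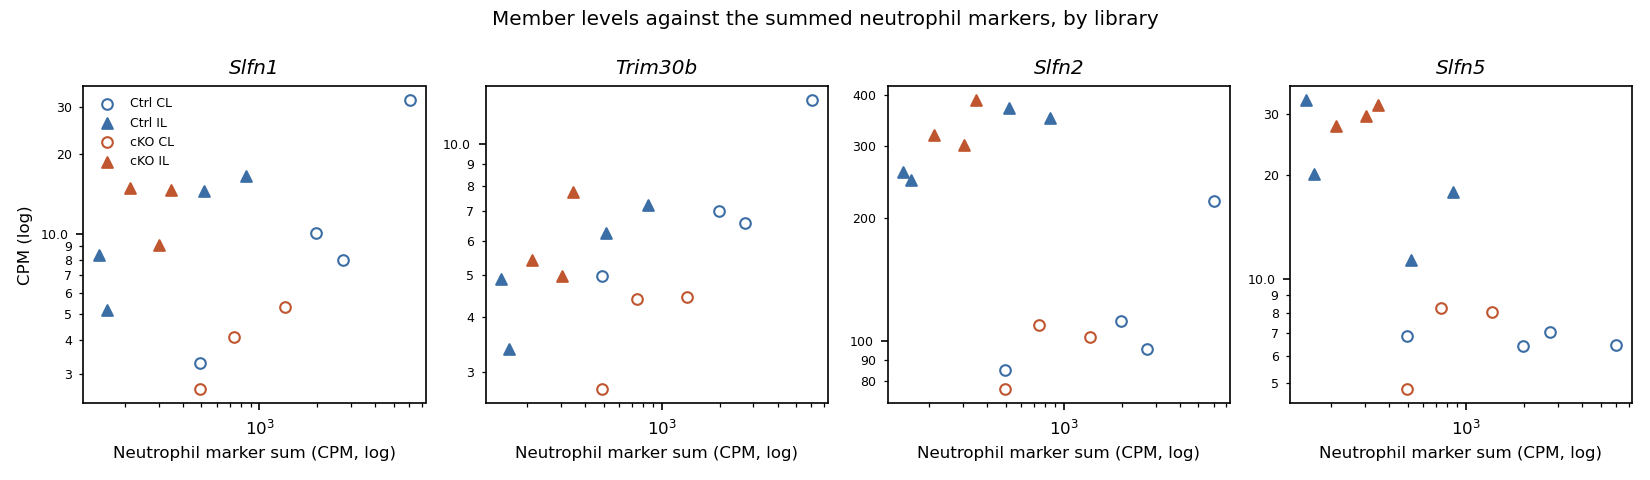
Deposited CPM of 4 members (y axes, log scale) against the summed CPM of 8 neutrophil markers (x axes, log scale), 1 point a library, open circles for CL and filled triangles for IL, blue for Ctrl and orange for cKO. Among the CL libraries Slfn1 runs from 2.63 to 31.7 CPM along with the marker sum, while Slfn5 stays between 4.82 and 8.26 CPM.

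Of the 10 TRIM relatives on the list, 8 were tested between hemispheres in each genotype and between genotypes in IL, 7 between genotypes in CL and 9 in the interaction. *Trim25*, the ligase that activates the RNA sensor RIG-I, was higher in IL in Ctrl (1.57 ± 0.18, limma adjusted p = 0.00133) and in cKO (1.18 ± 0.12, adjusted p = 0.00202). *Trim14* was higher in IL in cKO (0.57 ± 0.13, adjusted p = 0.0153). The neighbours and closest relatives of Trim30 gave no call. In cKO, *Trim5* had a log2 difference of -0.47 ± 0.19, *Trim12a* of -0.28 ± 0.11, *Trim12c* of 0.12 ± 0.17, *Trim34a* of 0.22 ± 0.13, *Trim6* of 0.33 ± 0.16 and *Trim21* of -0.14 ± 0.12. *Trim34b* and *Trim30e-ps1* were too low to be tested between hemispheres.

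Of the 5 Schlafen relatives, 3 were tested. *Slfn10-ps*, an expressed pseudogene next to *Slfn8*, was higher in IL in Ctrl (1.31 ± 0.29, limma adjusted p = 0.0263) and in cKO (1.04 ± 0.18, adjusted p = 0.00661), and in 6 of 6 mice. Its reads cannot all be told from those of *Slfn8* and *Slfn9*, which were not called in the same comparisons. *Slfn4*, a gene of monocytes and macrophages, was higher in IL in cKO (1.84 ± 0.45, adjusted p = 0.0229), and its correlation over the 7 CL libraries was 0.949 with the neutrophil and 0.967 with the monocyte sum. Over the 7 IL libraries it was 0.45 and -0.689 for *Slfn4*. *Slfn3* was not called, and *Slfn14* and *Slfnl1* were too low to be tested. No relative was called between genotypes in IL or CL or in the interaction.

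The interferon pathway was read from lists of its receptors, signal carriers and targets. Of 5 receptors and ligands tested, *Ifngr1*, a chain of the receptor for interferon gamma, fell in IL in Ctrl (-0.76 ± 0.16, limma adjusted p = 0.0184) and in cKO (-1.10 ± 0.17, adjusted p = 0.00456). *Ifnar1*, a chain of the type I receptor, rose in cKO (0.42 ± 0.08, adjusted p = 0.0103). Among signal carriers, *Irf7* was higher in IL in Ctrl (1.52 ± 0.38, adjusted p = 0.0418), and the genes higher in cKO included *Irf7*, *Stat2* and *Usp18* (0.86 to 2.08). Of 14 interferon-stimulated genes, 3 were called higher in Ctrl (*Ifit2*, *Rsad2* and *Zbp1*, by 1.57 to 1.87) and 11 in cKO, by 1.45 to 2.61. The 11 were *Isg15*, *Ifit1*, *Ifit2*, *Ifit3*, *Mx1*, *Oas1a*, *Oas2*, *Oasl2*, *Rsad2*, *Zbp1* and *Bst2*, while *Mx2*, *Ifi44* and *Cxcl10* had 0.41, 1.14 and 1.82 with no call. Over all genes, 4.18% were called higher in Ctrl and 12.3% in cKO, and none of the 14 was called in the interaction. None of these lists had a call between the genotypes. The median IL difference between genotypes was 0.96 over the 14 interferon-stimulated genes and 0.40 over the 9 members, against 0.01 over all genes.

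Genes ascribed to the action of the 2 families were read from 2 further lists, and none was called in the interaction. Of 10 genes of the TAB and NLRP3 axis, *Nlrp3* (0.55 ± 0.15, limma adjusted p = 0.0304) and its adaptor *Pycard* (0.46 ± 0.10, adjusted p = 0.0166) were higher in IL in cKO. *Tab2*, whose protein was described as a target of TRIM30A, was lower (-0.41 ± 0.10, adjusted p = 0.0266), as was *Nfkb1* (-0.66 ± 0.12, adjusted p = 0.00931). Of all genes in this comparison, 23.1% were called and 12.3% called higher. *Tab3*, the gene of the other adaptor so described, was not called. These are RNA levels, which do not show the breakdown of a protein. Mean *Tab2* was 33.8 ± 6.91 CPM (SD) in Ctrl CL and 26.9 ± 2.71 CPM (SD) in Ctrl IL. None of the 10 genes was called in Ctrl or between the genotypes. Of 10 genes of quiescence and the cell cycle, *Klf2*, a factor of quiescence, fell in IL in Ctrl (-0.84 ± 0.18, adjusted p = 0.0243) and in cKO (-1.26 ± 0.21, adjusted p = 0.0064), while the proliferation marker *Mki67* rose in Ctrl (0.90 ± 0.20, adjusted p = 0.0242). *Ccnd1*, the cyclin of the G1 phase, was higher in cKO than in Ctrl IL (1.36 ± 0.22, adjusted p = 0.0382).

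The genes whose log2 levels followed a member most closely over the 14 libraries were sought among 13642 genes. These correlations are descriptions, since libraries of a hemisphere or mouse are not independent. *Trim30a* went with *Usp18* (r = 0.959), *Dhx58* (0.956) and *Oas1g* (0.948), all interferon-stimulated genes. *Slfn8* went with *Dtx3l* (0.933), *Ddx58* (0.882) and *Phf11d* (0.851). *Slfn2* went with *Il2rg* (0.986), 1600014C10Rik (0.978) and Asns (0.976), and *Slfn5* with *Sdc3* (0.966), *D17Wsu92e* (0.964) and *P2rx4* (0.962). *Slfn9* went with *Nup205* (0.922), *Trim37* (0.917) and *Rtn4ip1* (0.917), and *Trim30d* with *Xrn2* (0.895), *Ttc27* (0.843) and *Tdrd7* (0.821). *Slfn1* and *Trim30b* shared *Glipr2* as their closest gene (0.964 and 0.910), and their own r was 0.901. Next came *Mxd1* (0.934) and *Samhd1* (0.931) for *Slfn1*, and *Mcemp1* (0.907) and *Ifit1bl2* (0.901) for *Trim30b*. *Trim30c* had the weakest first match, *Tent5a* (0.856), before *Eya4* (0.837) and *Enpp4* (0.823). Within the clusters *Slfn2* and *Slfn5* had an r of 0.82 and *Trim30a* and *Trim30d* of 0.69, and between them *Trim30a* had an r of 0.809 with *Slfn2* and *Slfn8* one of 0.849 with *Trim30d*.

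The surroundings of the clusters were mostly not called. Within 1 Mb of the Trim30 members, 0 of 15 other genes tested were called between hemispheres in Ctrl and 2 of 15 or 13.3% in cKO (*Cavin3* higher and *Fam160a2* lower), against the 7.52% and 23.1% of all genes. Within 1 Mb of the Schlafen members, 4 of 35 or 11.4% were called in Ctrl and 8 of 35 or 22.9% in cKO. These included the chemokine genes *Ccl2*, *Ccl7* and *Ccl12* in cKO, which were higher in IL. Between the genotypes, no neighbour of either cluster was called in IL (0 of 15 and 0 of 37) or in CL (0 of 14 and 0 of 36).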

How the data were processed

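CD11b+ cells from 14 hemispheres were sequenced from Smart Seq v4 libraries, paired-end. The authors mapped reads with STAR to mm10 and processed them in Partek Flow 8.0 (submitters' notes). The counting tool and annotation are not given in the sources used here. The authors deposited values named raw counts that sum to 1000000 in each library, so they are CPM. Between 79.0% and 83.5% of values under 100 reads fell within 0.03 reads of a whole multiple of the smallest step, which gave the depth of 12.2 to 41.6 M reads. Reads shared among genes are fractional, so no count test was run. The authors also deposited tables of their own comparisons (fold changes, p-values and group means), which were not used.

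Values were divided by factors from an unweighted trimmed mean of M-values (30% of M and 5% of A trimmed) and taken as log2(CPM + 1). A fold change on this scale understates the change of low genes. Genes entered with the CPM of 10 reads at median depth in at least the number of libraries of the smaller group, and 15 reads in total. limma 3.58.1 (R 4.3.3, moderation with trend) fitted the libraries compared, and all 14 for the interaction, and p was adjusted by Benjamini-Hochberg over all genes tested. The script was tested on simulated data. The alternatives were pseudocounts of 0.5 and 0.1, 3 other scalings, 2 other filters, the adjusted p alone, fits of all 14 libraries, the mouse as a block, and each library left out in turn.

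The mouse numbers pair the hemispheres of 6 mice as the same animal. As a check, deviations from the group means correlated across genes with r of 0.184 to 0.604 in the same mouse, against -0.529 to 0.498 for 19 other pairs. Mice 784 and 788 were taken as different animals, which the libraries do not settle (r = 0.181). Errors in the text are SE of fitted log2 differences unless SD is written.

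Results on the target gene and on 1 listed gene are not reported here. The members and lists were chosen with earlier results of these data known. The text names each member, all listed relatives and the 3 genes of highest correlation with each member. Of the other lists it names the genes called in any comparison, but for those not reported and for cell type markers. Some cell type markers were called too, and these are given mostly as sums. The search for motifs and shared windows was added after the values were known. Gene models are GENCODE M21, promoters RefSeq, and transcripts were aligned with blastn 2.17.0. Python 3.11.15 with numpy 2.4.6, pandas 2.3.3 and matplotlib 3.10.9 did the remaining steps.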

Additional observations from a re-analysis of the deposited data

Results flagged for a closer look

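Among 18 combinations of a member with a group of 4 libraries, 2 held a library far from the other 3 by Dixon's criterion, which chance meets in about 1 of 20 groups. *Trim30a* in Ctrl IL was lowest in mouse 3551, at 60.5 CPM, with the other 3 libraries between 80.2 and 84.3 CPM. The gap made up 0.829 of the range. Without this library, the difference between cKO and Ctrl in IL was 0.53, and it was 0.66 with it. *Slfn9* in Ctrl CL was highest in the same mouse, at 16.5 CPM, with the other 3 libraries between 9.71 and 10.6 CPM and the gap at 0.872 of the range. The Ctrl CL library of this mouse was the second shallowest, with 16.1 M reads.

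*Trim30b* and *Trim30c* moved in opposite directions in the genotypes, from CL to IL lower in each of the 4 Ctrl mice and higher in both cKO mice that gave both hemispheres. The difference was tested with the interaction term, which was 0.91 ± 0.47 for *Trim30b* and 0.88 ± 0.21 for *Trim30c* (limma adjusted p = 0.9997 for both). Over the alternatives, the adjusted p of *Trim30c* ran from 0.201, with the mouse as a random effect, to 1.0. Over the same libraries the neutrophil marker sum was lower in IL in all 6 mice. The median log2 difference of its 8 markers was -2.71 in Ctrl and -1.31 in cKO. In the interaction all 8 markers had estimates above 0, with a median of 1.04 and no call. The part of these cells in the result was not tested.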

How the results depend on the processing

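Over all alternatives, 772 of 819 member values kept their direction and their side of the threshold, 8 lost and 9 gained a call, and 30 changed sign, all of them uncalled. The count of members called was 0 between genotypes in IL and in the interaction under each alternative. It was 1 in CL between genotypes in the single fit of 14 libraries and with the replicate block, and between hemispheres in Ctrl (2) it was 1 without the filter, 3 in the single fit, 3 with the replicate block and 1 to 2 with a library left out. Between hemispheres in cKO (4) it was 3 in the single fit and 5 with the replicate block. It was also 5 with 10 reads in each library, and 4 to 6 with a library left out.

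Counts over all genes moved more. Between genotypes in IL (113) they were 66 without the filter, 188 with the replicate block and 44 to 294 with a library left out. In CL (150) they were 88 without the filter, 96 with 10 reads in each library, 277 in the single fit, 296 with the replicate block and 67 to 161 with a library left out. Between hemispheres in Ctrl (1231) they were 571 without the filter, 2055 in the single fit, 3348 with the replicate block and 571 to 1660 with a library left out, and in cKO (3870) 1567 in the single fit, 2458 with the replicate block and 1949 to 3628 with a library left out. The interaction gave 5 genes with the replicate block and 0 to 1 with a library left out. The cause was not tested.

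Signs changed by scaling or filter only near 0. *Slfn8* between genotypes in CL (-0.00875) was 0.0013 with median-ratio scaling and 0.022 with 10 reads in each library, where *Trim30d* was 0.0095, and between hemispheres in Ctrl (0.00831) it was -0.076 on the deposited CPM and -0.038 with upper-quartile scaling. With a library left out, differences that changed sign ran between genotypes in IL for *Trim30b* from -0.031 to 0.33, *Trim30c* from -0.0046 to 0.11 and *Slfn1* from -0.0072 to 0.56. Between genotypes in CL they ran for *Trim30a* from -0.041 to 0.22, *Trim30d* from -0.13 to 0.082, *Slfn2* from -0.46 to 0.041, *Slfn5* from -0.057 to 0.27, *Slfn8* from -0.075 to 0.085 and *Slfn9* from -0.17 to 0.50. Between hemispheres in Ctrl they ran for *Slfn1* from -0.35 to 0.67 and *Slfn8* from -0.14 to 0.18. In the interaction they ran for *Slfn9* from -0.11 to 0.56.

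The groups hold 3 or 4 libraries, and the lowest member, *Trim30c*, rests on 22 to 106 reads a library.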

Other observations

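The share of *Trim30a* in the reads of the 4 Trim30 copies separated the hemispheres in each genotype, though in the fits of each genotype's own libraries without a block, with the main filter and no library left out, the only call of a copy between hemispheres was that of *Trim30a* in cKO. The sum of the 4 copies was 99.0 ± 8.10 CPM (SD, n = 4) in Ctrl CL, 108 ± 17.2 CPM (n = 4) in Ctrl IL, 94.3 ± 11.1 CPM (n = 3) in cKO CL and 164 ± 24.0 CPM (n = 3) in cKO IL. The sum of the 5 Schlafen members was 202 ± 73.2 CPM in Ctrl CL, 396 ± 63.5 CPM in Ctrl IL, 161 ± 20.3 CPM in cKO CL and 453 ± 54.5 CPM in cKO IL. These sums were not tested.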
